A study of Mus musculus with 2 samples.

Results

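Macrophages of the mouse choroid plexus that held no Cxcl13 and no Ccl8 transcript were described at 3 and at 24 months of age. They are barcodes with at least 500 genes, at most 25% mitochondrial UMIs and less than 10% of UMIs from Ttr, the transthyretin gene of the epithelium, that held 10 or more UMIs of C1qa, C1qb and C1qc together. A UMI, a unique molecular identifier, stands for 1 captured transcript copy. The members were chosen by these counts: of 18836 barcodes that passed the filters, 413 met the C1q limit, and 341 of those had 0 UMIs of Cxcl13 and Ccl8. The 3 month library gave 209 members and the 24 month library 132. Both groups were female C57BL/6 mice with no stated treatment or transgene. Each age is 1 droplet-based library made from the plexuses of the lateral and 4th ventricles of 4 mice, which were pooled after perfusion and enzymatic digestion. The comparison between ages therefore has no replicate check and no test was made. Differences are given as ratios with intervals that cover counting error only.

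The choroid plexus is a secretory epithelium around a vascular stroma, and macrophages sit in that stroma and on the ventricular face of the epithelium. Tissue macrophages make C1q, the first component of the classical complement pathway, and need signals through the receptor encoded by Csf1r. MHC class II molecules present peptides from endocytosed protein to CD4+ T cells. Cd74 encodes the invariant chain that guides these molecules to the endosome, where the H2-M complex loads the peptide. Macrophages at the borders of the brain are commonly divided into cells with high and with low MHC class II. Cxcl13 and Ccl8 encode chemokines, for B cells and for monocytes and T cells.

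The macrophage label held for markers that the rule had not used. Csf1r was found in 79.9% of members at 3 months and in 80.3% at 24 months. Ms4a7, a tetraspanning protein gene of border macrophages, was found in 78.0% and 84.8%. Mrc1, the mannose receptor CD206, was found in 52.6% and 40.9%, and Pf4, the chemokine CXCL4, in 47.8% and 30.3%. With every cell thinned to 1500 UMIs, Csf1r was in 59.3% and 59.4% of members and in 0% of epithelial barcodes, and Mrc1 was in 37.3% and 24.2% of members against 0.102% and 0%, so the free RNA seen in epithelial barcodes was far below these shares. At 24 months 4 members were too shallow for this thinning. Lyve1, a hyaluronan receptor of perivascular macrophages, gave 1 UMI at each age, and Folr2, the folate receptor beta, gave 6 and 1. P2ry12, a purinergic receptor of microglia, gave 16 UMIs at 3 months and 5 at 24 months, and the microglial factor Sall1 gave 1 and 0. Most members thus held Csf1r and Ms4a7, a part of them held Mrc1 and Pf4, and Lyve1, Folr2 and Sall1 were near the detection limit.

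The members held 672868 UMIs at 3 months and 379312 at 24 months, with a median of 3091 and 2843 UMIs per cell and of 2.28% and 1.74% Ttr. In all, 29 barcode sequences occurred in both libraries, and 2 members were among them, none as a member in both. Markers of lymphocytes, neutrophils, endothelial cells and fibroblasts were sparse, while epithelial and monocyte lists were present in nearly every member. Of 15 T and NK cell genes 13 and 12 were at 0, among them Cd3d, Cd3e and Trac, and of 10 B and plasma cell genes 8 were at 0 at each age, among them Cd79a and Ms4a1. Of 12 endothelial genes 1 was at 0 at each age, and their sum was 251 CPM (UMIs per 1e+06 UMIs) at 3 months and 438 CPM at 24 months. At 24 months 2 of 132 members held 3 or more UMIs of them, against 10 of 209 at 3 months, and the low members held 159 of the 166 endothelial UMIs of that age. Of 12 fibroblast genes 3 were at 0 at each age, and their sum was 49.0 and 232 CPM. Of 7 neutrophil genes 5 were at 0 at each age, S100a8 and S100a9 included. The sum of 16 epithelial genes was 28266 CPM at 3 months and 23071 CPM at 24 months, and every member held 3 or more of these UMIs. The sum of 16 monocyte genes, among them Lyz2, was 5527 and 6338 CPM, with 7 and 8 of them at 0, Chil3 and Vcan included. The sum of 18 dendritic cell genes was 574 and 253 CPM, with Ffar2 and Cd7 at 0 at both ages. In bulk sums of this kind, fewer cells with a transcript and less transcript per cell cannot be told apart from the sum alone, so shares of cells are given beside it where they matter.

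Promoter sequences are shown first because the division of these macrophages rests on MHC class II genes, which share short promoter elements. The Y box, written here as TGATTGG or its reverse complement CCAATCA, is such an element, bound by the factor NF-Y. It was searched on both strands in the 250 bases before the start of each gene (RefSeq, GRCm38.p6, the same build as mm10). It was present in 7 of the 8 MHC class II chain genes that have an entry (H2-Aa, H2-Eb1, H2-Eb2, H2-DMb1, H2-DMb2, H2-Oa and H2-Ob, but not H2-DMa) and in 7.23% of all 32851 promoters. Over all class II genes listed, chains and other pathway genes without Cd74, 15 had an entry and 8 of these held it. Pf4, Nrp1 and Errfi1, named further below, were searched as well and held no match. The last 110 bases before the start follow for H2-Aa, H2-Eb1 and H2-DMb1, and for Cxcl9, a chemokine gene found in 12 MHC class II high and 4 low members. Capitals mark the motif, and each is read 5′ to 3′ on the strand of its gene. H2-Aa lies at chr17:34287824-34287933 on the minus strand, H2-Eb1 at chr17:34305757-34305866 on the plus strand, H2-DMb1 at chr17:34153081-34153190 on the plus strand and Cxcl9 at chr5:92328080-92328189 on the minus strand.
H2-Aa: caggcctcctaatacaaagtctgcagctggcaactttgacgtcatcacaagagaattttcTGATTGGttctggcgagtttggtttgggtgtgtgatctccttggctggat
H2-Eb1: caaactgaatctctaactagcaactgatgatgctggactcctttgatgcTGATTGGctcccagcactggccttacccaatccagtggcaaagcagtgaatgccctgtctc
H2-DMb1: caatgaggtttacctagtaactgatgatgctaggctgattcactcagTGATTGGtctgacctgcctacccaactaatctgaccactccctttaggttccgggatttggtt
Cxcl9: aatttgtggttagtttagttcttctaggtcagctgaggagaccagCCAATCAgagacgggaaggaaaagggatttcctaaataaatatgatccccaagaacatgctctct
The motif begins 50 bases before the start in H2-Aa, 61 in H2-Eb1 and 63 in H2-DMb1, all on the gene's own strand. In Cxcl9 it lies on the other strand, 65 bases before the start. A match of letters is a description of the sequence and not a site of binding.

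The share of C1q-bearing barcodes that were members differed between the libraries, which the rule itself sets. At 3 months 209 of 215 were members (97.2%, exact Clopper-Pearson 95% interval 94.0 to 99.0), and at 24 months 132 of 198 (66.7%, 59.6 to 73.2). Cxcl13 was in 0 of 215 barcodes at 3 months and in 48 of 198 at 24 months, and Ccl8 in 6 and in 37. Among the barcodes just outside the rule, 5 at 3 months and 14 at 24 months held exactly 1 UMI of the 2 genes together. At the C1q limit, 8 barcodes held 9 UMIs and stayed out, and 4 held 10 and came in. The highest Ttr share of a member was 9.06%, and 2 barcodes were kept out by Ttr alone, the lower at 10.2%.

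MHC class II transcripts made up more of the RNA in the older members. The summed share of H2-Aa, H2-Ab1, H2-Eb1 and Cd74 had a median of 4.56% of UMIs at 3 months (quartiles 2.49 and 5.86, range 0 to 9.20) and of 5.71% at 24 months (quartiles 4.48 and 6.82, range 0 to 12.5). Members were split at the median of all 341, which was 4.94%, with 5.01% as the lowest share above it and 70 members within 0.5 percentage points of it. Above it stood 85 of 209 members at 3 months (40.7%, 33.9 to 47.7) and 85 of 132 at 24 months (64.4%, 55.6 to 72.5). Members with at most 1% of UMIs in the 4 genes were 27 of 209 (12.9%, 8.69 to 18.2) and 9 of 132 (6.82%, 3.16 to 12.5). The 2 ranges overlap almost wholly, and the older library has fewer cells at the bottom of the range. A cut at the median is a cut through a continuous range and does not mark 2 cell types.

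**Figure D1:**
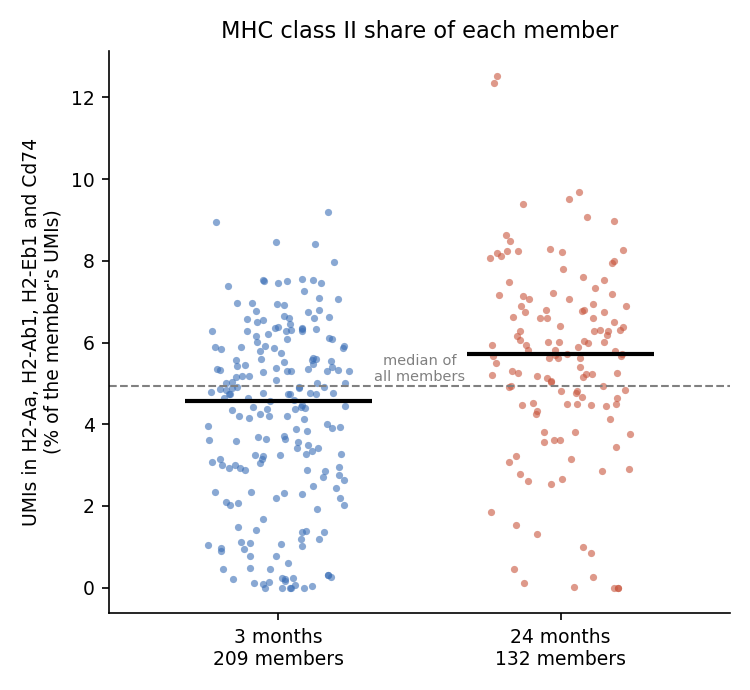
Each point is 1 member: its share of UMIs in the 4 MHC class II genes (vertical axis, %) by library (horizontal axis), with the median of each library as a black bar and that of all members as a dashed line. The black bars stand at 4.56% at 3 months and 5.71% at 24 months, and both libraries run from 0 upward.

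The 4 genes of the split were all higher at 24 months by similar factors, each below the 1.5-fold used here as a rule of size. H2-Eb1, a beta chain, was at 6324 CPM at 3 months and 9019 CPM at 24 months, a ratio of 1.43 (95% interval 1.36 to 1.49). H2-Ab1, the other beta chain, was at 6723 and 9288 CPM (1.38, 1.32 to 1.44). Cd74 was at 19733 and 25781 CPM (1.31, 1.27 to 1.34), and H2-Aa, an alpha chain, at 7798 and 9989 CPM (1.28, 1.23 to 1.34). Within the MHC class II high members alone the ratios by age were between 1.05 for H2-Aa and 1.13 for H2-Eb1, and within the low members between 1.10 for Cd74 and for H2-Aa and 1.25 for H2-Eb1. Epithelial barcodes held 3.3 and 4.5 CPM of H2-Aa. The other genes of class II presentation stood at a median log2 ratio of 0.22 over 8 measured of 18, with 0 past 1.5-fold. Ctss, a protease that trims the invariant chain, was at 2531 and 3638 CPM (1.44, 1.34 to 1.54).

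The MHC class II high and low members differed in many other genes, with the peptide-loading genes H2-DMb1 and H2-DMa, Cxcl9 and Ccl5 on the high side and border macrophage genes such as Pf4 and Mrc1 on the low side. Because the split was made on transcripts of the same cells, what follows describes the split and tests nothing. Genes with 100 or more UMIs in the 2 sets together were compared, and higher or lower means a CPM at least 1.5-fold apart. Of 1189 genes, 50 were higher (4.21%) and 91 lower (7.65%) in the high members. The 4 genes of the split, which the rule itself sets, are among the 50. They are also among the higher genes counted within each library below. The scaling decides which side is the longer: with TMM factors, which shift all genes by 0.17 on the log2 scale, 93 were higher and 45 lower, and with median-of-ratios factors, a shift of 0.12, 79 and 57. Within the 3 month library 43 of 823 genes were higher (5.22%) and 71 lower (8.63%), and within the 24 month library 32 of 462 were higher (6.93%) and 26 lower (5.63%). At 24 months the scaling weighed most: TMM factors, a shift of 0.25, gave 70 higher and 13 lower, and median-of-ratios factors, a shift of 0.27, gave 74 and 13. Beyond the size rule over both libraries, 25 genes were higher and 41 lower in each library by itself as well.

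Peptide loading genes went with the split. H2-DMb1 (chr17:34153072-34160230), a beta chain of H2-M (spans of whole genes are mm10, from GENCODE, whose gene starts can differ from those of RefSeq), was at 617 CPM in the high and 237 CPM in the low members at 3 months, and at 592 and 283 CPM at 24 months, a pooled ratio of 2.44 (1.98 to 3.00). H2-DMa, its partner, stood at 471 against 250 CPM over both libraries (1.88, 1.52 to 2.34). Cd40, the costimulatory receptor for T cell help, stood at 180 against 109 CPM (1.65, 1.18 to 2.33). These were the 3 of 8 measured class II pathway genes past the rule, with none lower, and the median of the 8 was 0.21 beside -0.08 for all genes. Within the libraries the median was 0.01 at 3 months (all genes -0.07) and -0.07 at 24 months (all genes 0.02), with 2 of 7 higher in each, so the pooled median did not hold within either. None of the 12 measured MHC class I and loading genes passed.

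Cxcl9 (chr5:92321347-92328079), an interferon-gamma-induced chemokine for T cells, had the highest ratio, 10.4 (5.39 to 22.3), with 10.5 at 3 months and 11.9 at 24 months. It came from few cells: 7 high members held 54 UMIs at 3 months and 5 held 40 at 24 months, against 2 low members at each age, with 8 and 2 UMIs. It also turned to the low side, at a log2 ratio of -0.38, when barcodes with 5 or more C1q UMIs were taken. Rsad2, an antiviral interferon response gene, was at 499 against 202 CPM at 3 months and at 429 against 63.7 CPM at 24 months. With Ifih1, a sensor of viral RNA (1.53, 1.15 to 2.03), it was 1 of 2 genes past the rule among 13 measured interferon response genes, whose median was -0.02. Crip1, a LIM domain protein, stood at 358 against 103 CPM over both libraries (3.46, 2.55 to 4.75), and Vim, the intermediate filament vimentin, at 389 against 170 CPM (2.28, 1.78 to 2.95). Lgals3, galectin-3, stood at 346 against 169 CPM (2.05, 1.58 to 2.67). Ptgs2, the prostaglandin synthase COX-2, was at 1481 against 836 CPM at 3 months and at 1580 against 474 CPM at 24 months. AA467197 (5.39), AW112010 (2.60) and Mgl2, a galactose lectin of macrophages and dendritic cells (2.46, 1.76 to 3.48), were the other genes that led the high side. Ccr2, the receptor of monocytes recruited by CCL2, gave 47 UMIs in the high and 7 in the low members, too few for the 100 UMI limit. Ccl22 had a ratio of 5.38 over both libraries and 1.46 at 24 months, so it was not among the genes past the rule in each library. The sum of 18 dendritic cell genes, Ccl22 among them, was 1173 CPM in the high and 190 CPM in the low members at 3 months, and 323 and 134 CPM at 24 months. At 3 months the high members lacked Fscn1, Ffar2 and Cd7, and the low members lacked Clec9a, Ffar2 and Cd7. At 24 months the high members lacked Cd209a, Fscn1, Ccl17, Ffar2 and Cd7, and 10 of the 18 genes were at 0 in the low members, Flt3, Zbtb46 and Xcr1 included. The part of such cells in these ratios was not tested.

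Several border macrophage genes were higher in the low members. Pf4 (chr5:90772435-90773383) was at 817 CPM in the low and 175 CPM in the high members at 3 months, and at 679 and 185 CPM at 24 months, a ratio of high over low of 0.230 (0.181 to 0.289). Nrp1 (chr8:128358604-128503363), a coreceptor for semaphorins and VEGF, was at 180 and 38.1 CPM at 3 months and at 241 and 46.2 CPM at 24 months (0.214, 0.127 to 0.344). The low and high levels do not come near each other in either library for these genes. Fcrls, an Fc receptor-like gene best known from microglia, stood at 381 CPM in the low and 93.9 CPM in the high members (0.247, 0.176 to 0.340). The 19 microglia and epiplexus genes, Fcrls among them, summed to 2430.5 CPM in the low and 1755 CPM in the high members at 3 months. At 24 months their sums were 2994 and 2050 CPM. Hbegf, an EGF receptor ligand, stood at 549 and 130 CPM (0.236, 0.178 to 0.310), and Bmp2, a secreted bone morphogenetic protein, at 368 and 124 CPM (0.336, 0.249 to 0.449). Hmox1, which degrades haem, stood at 343 and 114 CPM (0.332, 0.243 to 0.449), and Maf, a transcription factor of tissue macrophages, at 203 and 69.9 CPM (0.344, 0.228 to 0.507). Eps8 (0.376), Pim3 (0.428) and Sash1 (0.430) completed the leading genes. Of 30 border macrophage genes 11 were measured, with a median of -0.31 beside -0.08 for all genes. Of the 11, 5 were lower and 0 higher, beside 7.65% of all genes lower. Mrc1 was among the 5, at 495 CPM in the low and 224 CPM in the high members (0.452, 0.359 to 0.565). Dab2, an endocytic adaptor, was too (0.540, 0.440 to 0.660). 3 further members of that list fell under the UMI limit and pointed the same way: Cd163, the haemoglobin scavenger receptor, gave 79 UMIs in the low and 6 in the high members, Cbr2, a carbonyl reductase, 63 and 6, and F13a1, the factor XIII A chain, 81 and 12. The sum of the 16 epithelial genes was also larger in the low members, at 31265 against 23581 CPM at 3 months and 24490 against 22229 CPM at 24 months, and that of 12 endothelial genes was 312 against 156 and 1125 against 29.4 CPM. The part of these in the ratios was not tested.

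**Figure D2:**
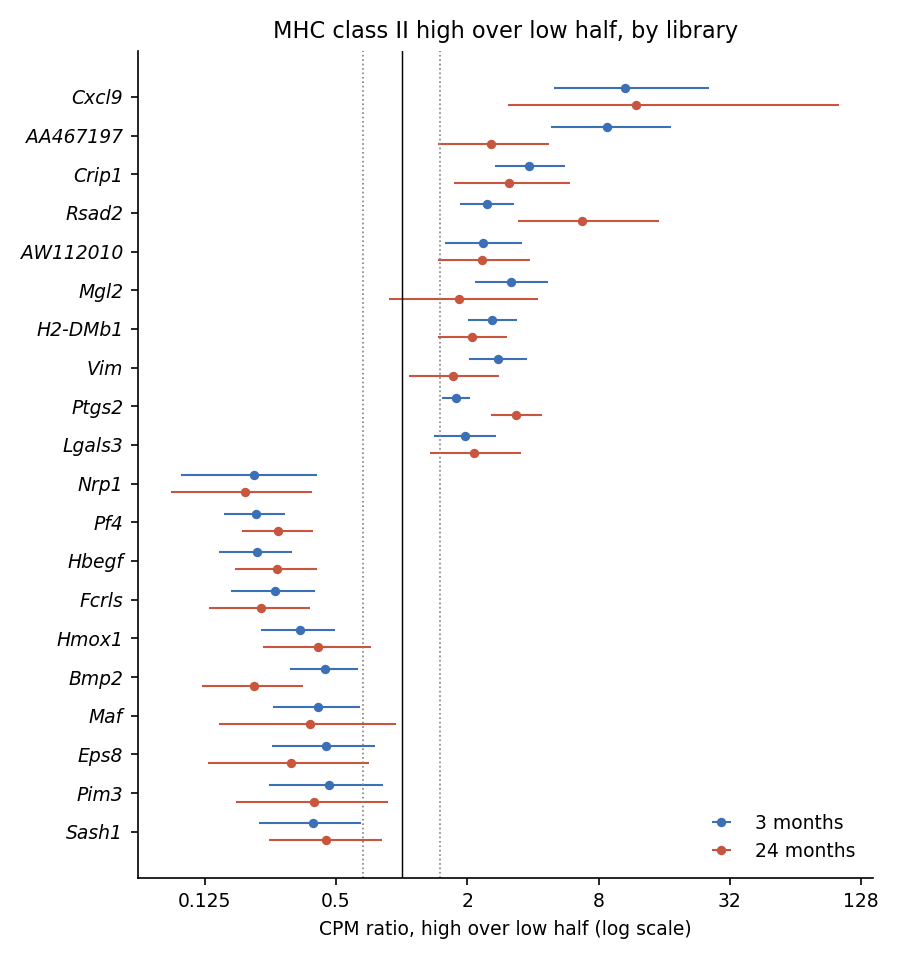
CPM ratio of MHC class II high over low members (horizontal axis, log scale) for 20 named genes in the 3 month library (blue) and the 24 month library (red), with 95% counting intervals and dotted lines at 1.5-fold. The 10 upper genes lie right of the upper dotted line and the 10 lower genes left of the lower one in each library, Pf4 at 0.214 and 0.272.

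Ctsl, Ctsd, Lamp1 and C5ar1 were also lower in the high members, while most measured lysosome genes did not pass the rule. Of 23 measured lysosome genes 3 were lower, beside 7.65% of all genes, with a median of -0.23: the proteases Ctsl (0.50, 0.397 to 0.627) and Ctsd (0.577, 0.490 to 0.679) and the membrane protein Lamp1 (0.641, 0.534 to 0.769). At 3 months alone 7 of 20 lysosome genes were lower and 1 higher (median -0.44), beside 8.63% of all genes lower. At 24 months 2 of 17 were lower and 0 higher (median -0.14), beside 5.63% of all genes lower. Over both libraries, the anaphylatoxin receptor C5ar1 was lower too (0.654, 0.542 to 0.788). The C1q genes of the rule stood level, with C1qa at a ratio of 1.02. Of 22 measured chemokine and cytokine genes 3 were higher and 2 lower, beside 4.21% and 7.65% of all genes, with a median of 0.02. The higher ones were Cxcl9, Ccl5 (1.74, 1.53 to 1.98) and Il1b (1.72, 1.64 to 1.79), and the lower ones Pf4 and Ccl2 (0.659, 0.618 to 0.703). With TMM factors, 0.17 higher for every gene, the ratios of Lamp1, C5ar1 and Ccl2 no longer passed 1.5-fold, and at 24 months alone Lamp1 stood at 0.922 and Ccl2 at 0.997. Apoe stood at 0.967 and Lyz2, a lysozyme of myeloid cells, at 1.01.

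Few genes differed by age past the size rule in the members, and more of them were lower than higher at 24 months. Of 1189 genes that had 100 or more UMIs in the members of the 2 libraries, 22 were higher (1.85%) and 72 lower (6.06%) at 24 months, and the median log2 ratio of all was -0.04. The other scalings tried moved all genes by at most 0.03 over all members. TMM factors moved them by -0.14 within the low members and by 0.09 within the high members. None of the members' genes has a replicate at either age, and the values below compare 1 library with 1 library.

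**Figure D3:**
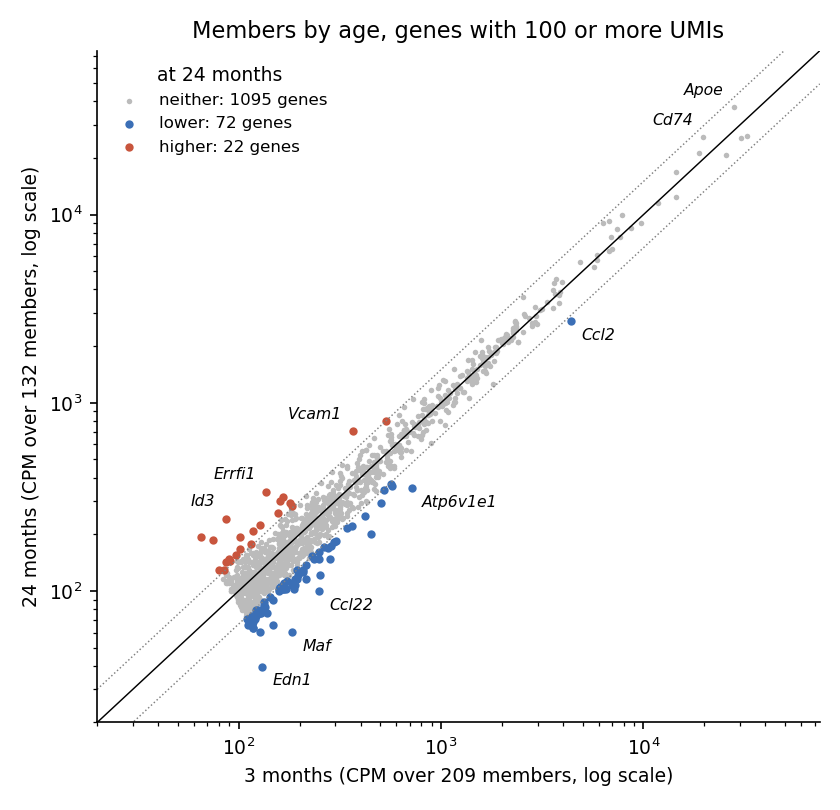
CPM summed over the members at 3 months (horizontal axis) and at 24 months (vertical axis), both log scales, for the 1189 genes with 100 or more UMIs, with the line of equal level and dotted lines at 1.5-fold. The 22 genes higher (red) and 72 lower (blue) at 24 months lie beyond the dotted lines, and Ccl2, at 4372 and 2721 CPM, has the highest level among them.

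Errfi1, Vcam1 and Id3 were higher at 24 months in the MHC class II high and in the low members alike. Errfi1 (chr4:150853919-150868892), a feedback inhibitor of EGF receptors, was at 137 CPM (95% interval 110 to 168) at 3 months and 338 CPM (282 to 401) at 24 months, a ratio of 2.47 (1.87 to 3.26). It was found in 25.8% and 43.9% of members. The ratio was 2.55 in the high and 2.99 in the low members. Vcam1 (chr3:116109949-116129688), an adhesion molecule that binds leukocyte integrins, was at 366 and 707 CPM, a ratio of 1.93 (1.62 to 2.31), and in 31.6% and 49.2% of members. Its level went from 137 to 521 CPM in the high members and from 512 to 1019 CPM in the low ones. Vcam1 is also a gene of other cells: epithelial barcodes held 132 and 169 CPM, and the sums of the endothelial and fibroblast genes were higher at 24 months, in few members, as given above. Without the 15 and 8 members that held 3 or more UMIs of the markers of another cell type, the log2 ratio of Vcam1 was 0.97, beside 0.95 with them. Id3 (chr4:136143497-136145755), an inhibitor of helix-loop-helix factors, was at 86.2 and 243 CPM, a ratio of 2.81 (2.00 to 3.98), with 1.81 in the high and 4.45 in the low members. Epithelial barcodes held 168 and 186 CPM of Id3, which is above the members at 3 months.

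Most of the other genes named by size on the higher side lost the 1.5-fold difference under at least 1 alternative. Acsl1, which activates long-chain fatty acids, was at 101 and 192 CPM (1.90, 1.35 to 2.69), and with every member thinned to 1500 UMIs its log2 ratio was 0.12. Fam46c, a poly(A) polymerase gene, was at 166 and 316 CPM (1.90, 1.46 to 2.48). AW112010 was at 161 and 301 CPM (1.87, 1.43 to 2.46), with 1.54 and 1.55 in the high and low members, so the pooled ratio lay above both. N4bp1, a nuclease that restrains cytokine production, stood at 1.77 (1.28 to 2.45), and at a log2 ratio of 0.43 after thinning. Sowahc stood at 1.66 (1.24 to 2.20), and at a log2 ratio of 0.40 in all C1q barcodes. Rcbtb2 stood at 1.66 (1.13 to 2.42), and at 0.47 on the log2 scale after thinning. Runx3, a transcription factor of leukocytes, stood at 1.65 (1.12 to 2.43), and at 0.49 on the log2 scale among members with 1000 or more genes. AA467197 had a ratio of 1.75, made up of 1.04 in the high and 3.57 in the low members, and its log2 ratio was 0.32 in all C1q barcodes and 0.38 with high and low members weighted equally. Irf8, a transcription factor of the macrophage lineage, had a ratio of 1.64 (1.26 to 2.14), but 1 member held 36 of its 111 UMIs at 24 months, and without the member with the most UMIs at each age the ratio was 1.24. Without members that held markers of another cell type its log2 ratio was 0.15.

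On the lower side, Edn1 and Maf had the lowest ratios. Edn1 (chr13:42301476-42307990), endothelin-1, a vasoconstrictor peptide that macrophages also make, was at 131 CPM at 3 months and 39.5 CPM at 24 months, a ratio of 0.302 (0.162 to 0.526). Maf (chr8:115682942-115707794) was at 184 CPM (153 to 220) and 60.6 CPM (38.4 to 91.0), a ratio of 0.329 (0.201 to 0.516), and was found in 33% and 15.9% of members. It was lower in the high members, from 99.0 to 37.8 CPM, and in the low members, from 239 to 99.1 CPM. Epithelial barcodes held 81.6 and 80.9 CPM of Maf, above the 24 month members. Atp6v1e1, a subunit of the proton pump of lysosomes, was at 715 and 353 CPM (0.494, 0.405 to 0.600) and in 74.6% and 53.0% of members, with 435 and 417 CPM in epithelial barcodes. Rbpj, the transcription factor of Notch signalling, was at 505 and 293 CPM (0.579, 0.463 to 0.720). Hmox1 was at 282 and 148 CPM (0.523, 0.381 to 0.708), with 0.746 in the high and 0.614 in the low members, so the pooled ratio lay below both.

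Ifi203, Mndal, Ccl22 and Ifnb1 were also on the lower side. Ifi203 and Mndal are interferon-inducible genes of the p200 family. Ifi203 was at 450 CPM and 200.4 CPM (0.445, 0.341 to 0.574) and in 50.2% and 25.8% of members, and Mndal was at 138 and 76.5 CPM (0.553, 0.351 to 0.847). The 2 genes are close relatives, and how reads that fit both were handled was not examined. In all C1q barcodes Ifi203 stood at a ratio of 0.699, and the related Ifi204 stood at 0.695 in the members, neither past 1.5-fold. Ccl22, a chemokine for CCR4-bearing T cells, was at 250 and 100.2 CPM (0.401, 0.274 to 0.573). In the high members it went from 548 to 113 CPM, and in the low ones it was at 58.5 and 77.9 CPM. Ifnb1, interferon beta, was at 149 and 65.9 CPM (0.443, 0.274 to 0.693) and came from 10.0% and 6.82% of members. For Ifnb1, 1 member held 21 of the 100 UMIs at 3 months and 1 held 13 of the 25 at 24 months. Without these 2 members the ratio of Ifnb1 was 0.271. Among members with 1000 or more genes, the log2 ratio of Ifnb1 was -0.01. Mgl2 was at 189 and 108 CPM (0.573, 0.393 to 0.820), and without members that held markers of another cell type its log2 ratio was -0.51. The sum of the 18 dendritic cell genes, Ccl22 among them, was 574 and 253 CPM at the 2 ages. Ccl22 itself gave 168 of the 386 UMIs of that sum at 3 months and 38 of the 96 at 24 months, so the sum is not separate from Ccl22. Of 209 and 132 members, 21 and 13 held 3 or more UMIs of the 18 genes. The part of such cells in these ratios by age was not tested. Hivep3 (0.549), a zinc finger protein, and Trmt112 (0.539), a cofactor of methyltransferases, completed the leading genes.

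Several ratios by age were not the same in the members as in all C1q barcodes, of which the rule left out 66 of 198 at 24 months and 6 of 215 at 3 months. Pf4 was at 566 and 369 CPM in the members, a ratio of 0.652 (0.533 to 0.793), but 1.07 over all C1q barcodes. Within the high members its ratio was 1.06 and within the low members 0.832, so the pooled value was outside the range of its 2 parts. The pooled ratios of AW112010, Hmox1, Maf, Vcam1 and Errfi1 lay outside theirs too. High members were 40.7% of members at 3 months and 64.4% at 24 months. With high and low members weighted equally, AW112010, Hmox1, Maf, Vcam1 and Errfi1 each still passed 1.5-fold. Mgl2 stood at 1.03 over all C1q barcodes and Mrc1 at 1.05, beside 0.794 in the members. Vcam1 stood at 2.67 and Errfi1 at 2.41 over all C1q barcodes. The border macrophage list, with 11 of 30 measured, had 2 lower, Maf and Pf4, beside 6.06% of all genes, and 0 higher by age in the members. Its median was -0.27, but 0.28 within the high members (7 measured) and -0.13 within the low ones (11 measured). In CPM the pooled median thus lay outside both. TMM factors shift all genes by -0.14 within the low members, so the order of the pooled and the low median depends on the scaling. Over all C1q barcodes the median of the list was 0.16 with 15 measured.

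**Figure D4:**
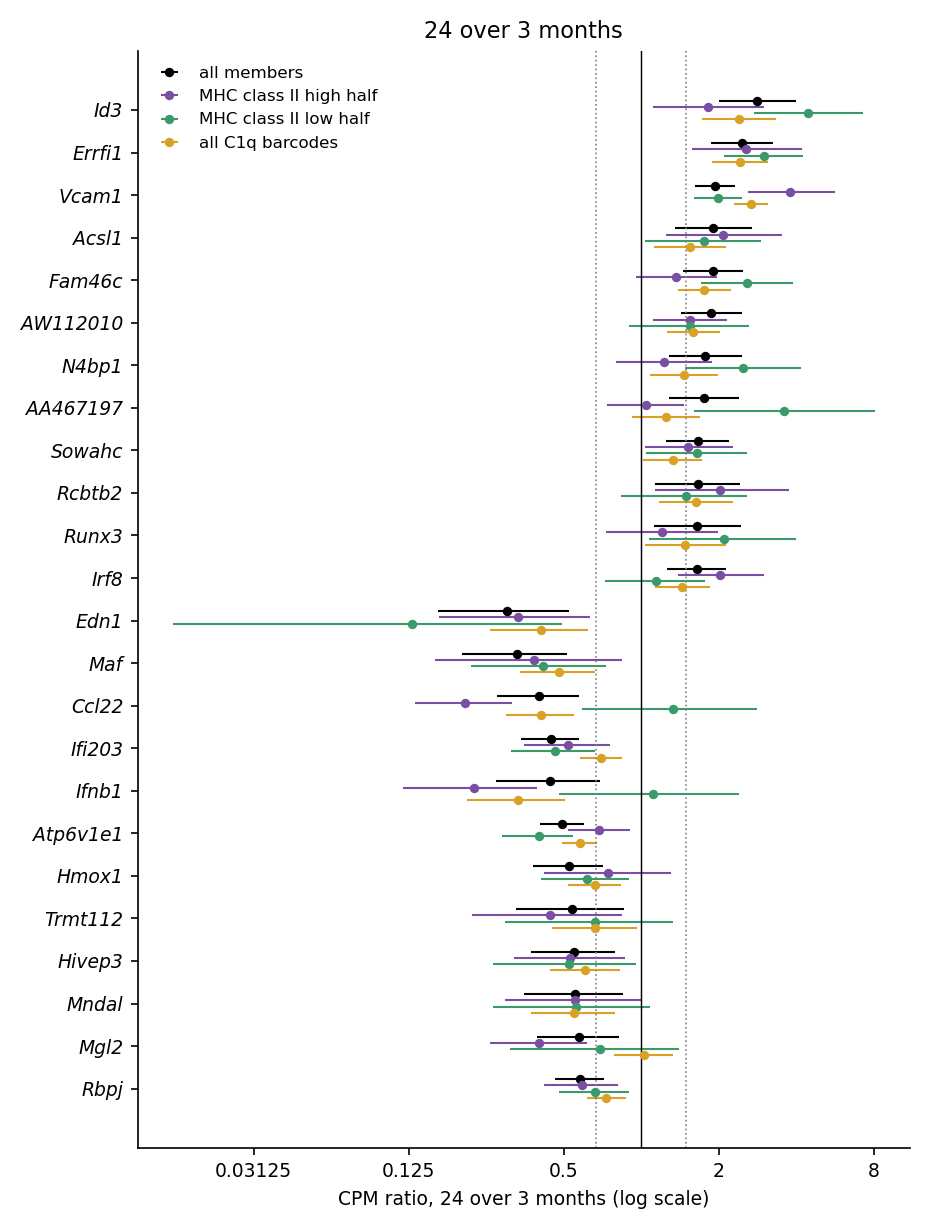
CPM ratio of 24 over 3 months (horizontal axis, log scale) for 24 named genes over all members (black), the MHC class II high members (purple), the low members (green) and all C1q barcodes with or without Cxcl13 and Ccl8 (yellow), with 95% counting intervals. Dotted lines mark 1.5-fold. Errfi1 and Vcam1 lie right of the right one in all 4, while Ccl22 and Ifnb1 lie left of the left one in the high members and at 1.33 and 1.12, with wide intervals, in the low ones.

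Few genes of the remaining lists passed the size rule by age. Of 22 measured chemokine and cytokine genes 2 were lower at 24 months, a share near the 6.06% of all genes, Ccl2, the main chemokine for monocytes (4372 and 2721 CPM, 0.622, 0.579 to 0.668), and Pf4, and the median was -0.15. Tnf and Il1b, picked after their values were seen, were present at high level at both ages. Tnf was at 3831 and 3730 CPM and in 94.3% and 96.2% of members, and Il1b at 7365 and 8415 CPM (1.14, 1.09 to 1.19). Of 30 measured nuclear genes of oxidative phosphorylation 3 were lower, also near the 6.06% of all genes, and 0 higher, with a median of -0.18: Ndufv3 (0.474, 0.286 to 0.759), Ndufa4 (0.609, 0.457 to 0.802) and Uqcr10 (0.625, 0.452 to 0.852), subunits of the respiratory chain. Epithelial barcodes held 1922 and 1792 CPM of Ndufa4, and the Ttr share of the members was lower at 24 months, as given above. Its part was not tested. Of 23 measured lysosome genes 1 was higher, the protease Ctsd (534 and 801 CPM, a ratio of 1.5, 1.29 to 1.75), which stood at 1016 and 1284 CPM in epithelial barcodes. Of 16 measured genes of disease-associated microglia the same gene was the 1 past the rule, and Apoe, the lipid carrier, was at 27869 and 37130 CPM (1.33, 1.30 to 1.36). Of 13 interferon response and 12 MHC class I genes, 0 passed. Of 25 measured immediate early and heat shock genes, Hspa1a was higher (1.64, 1.15 to 2.35) and Egr2 lower (0.610, 0.454 to 0.811). Of 4 measured senescence genes Vcam1 was higher and Mdm2 lower (0.634, 0.403 to 0.972), and Cdkn1a, which encodes p21, stood at 1446 and 1468 CPM (1.02, 0.913 to 1.13).

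Against the C1q barcodes with Cxcl13 or Ccl8, the members had more Lsp1, Ifnb1, Il12b, Tnf and Il1a and less of several border macrophage genes. This comparison rests on the rule and is a description, and it also sets members of both ages against 72 barcodes of which 66 are of the 24 month library. Values within the 24 month library are therefore given beside the pooled ones. Of 1475 genes 113 were higher (7.66%) and 110 lower (7.46%) in the members. With TMM factors (a shift of 0.16) 197 were higher and 50 lower, and with median-of-ratios factors (0.16) 201 and 50. Within the 24 month library 38 of 708 genes were higher and 65 lower, and with TMM factors 80 and 37. Il12b, the p40 chain of interleukin 12 and 23, was at 794 CPM at 3 months and 638 CPM at 24 months in the members, and gave 58 UMIs from 4 of the 72 other barcodes, a ratio of 2.95, and 3.05 at 24 months. Lsp1, an actin-binding protein of leukocytes, gave 115 UMIs in the members and 3 in the others, a ratio of 8.44, and 9.49 (2.44 to 81.4) at 24 months. Ifnb1 gave 125 and 4 UMIs, with 4.52 (1.38 to 23.4) at 24 months, where 1 member held 13 of the 25 UMIs. Crip1 (3.46 and 5.89 at 24 months), AA467197 (3.42 and 5.76), Swap70 (2.76 and 2.44), Samsn1 (2.50 and 2.20) and Fam105a (2.44 and 2.17) were the other leading genes. Tnf stood at 1.69 (1.74 at 24 months) and Il1a at 1.89 (1.66). They were 2 of the 3 higher among 22 measured chemokine and cytokine genes, of which 2 were lower, and the median of that list was -0.14. At 24 months 3 of 21 were higher and 3 lower, with a median of -0.18, beside 38 higher and 65 lower of all 708 genes.

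Cd163, Cbr2 and F13a1 marked the other side. Cd163 was in 15.3% and 11.4% of members and in 33.3% of the 72 barcodes, a ratio of 0.382, and 0.330 (0.199 to 0.539) at 24 months. Cbr2 stood at 0.389 and 0.271, F13a1 at 0.401 and 0.313, and Rgl1, an exchange factor for Ral, at 0.348 and 0.271. Vcam1 was in 81.9% of the 72 barcodes, a ratio of 0.347, and 0.466 (0.394 to 0.550) at 24 months. Clec4d, a C-type lectin, stood at 0.406 and 0.469 and Ly6a at 0.382 and 0.571. Cxcl9 stood at 0.168 and 0.245, but 1 barcode of the 72 held 45 of their 136 UMIs, and against the barcodes with 5 or more UMIs of Cxcl13 and Ccl8 its log2 ratio was 0.07. Of 15 measured border macrophage genes 7 were lower in the members and 0 higher, beside 7.46% of all genes lower, with a median of -0.54 beside -0.03 for all genes. At 24 months 5 of 9 were lower, with a median of -0.61, beside 65 of all 708 genes lower. Of 9 measured lipid handling genes 4 were lower and 0 higher, with a median of -0.58, beside the same 7.46% of all genes. At 24 months 2 of 5 were lower, beside the same 65 of 708 genes, and the median was -0.16. Pla2g7, a phospholipase that breaks down platelet-activating factor, stood at 0.511 and 0.548, and the cholesterol exporter Abca1 at 0.521 and 0.453. The MHC class II genes of the split had a median of -0.18, and of 0.05 at 24 months, and 38 of 66 barcodes with Cxcl13 or Ccl8 at 24 months lay above the members' median share.

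**Figure D5:**
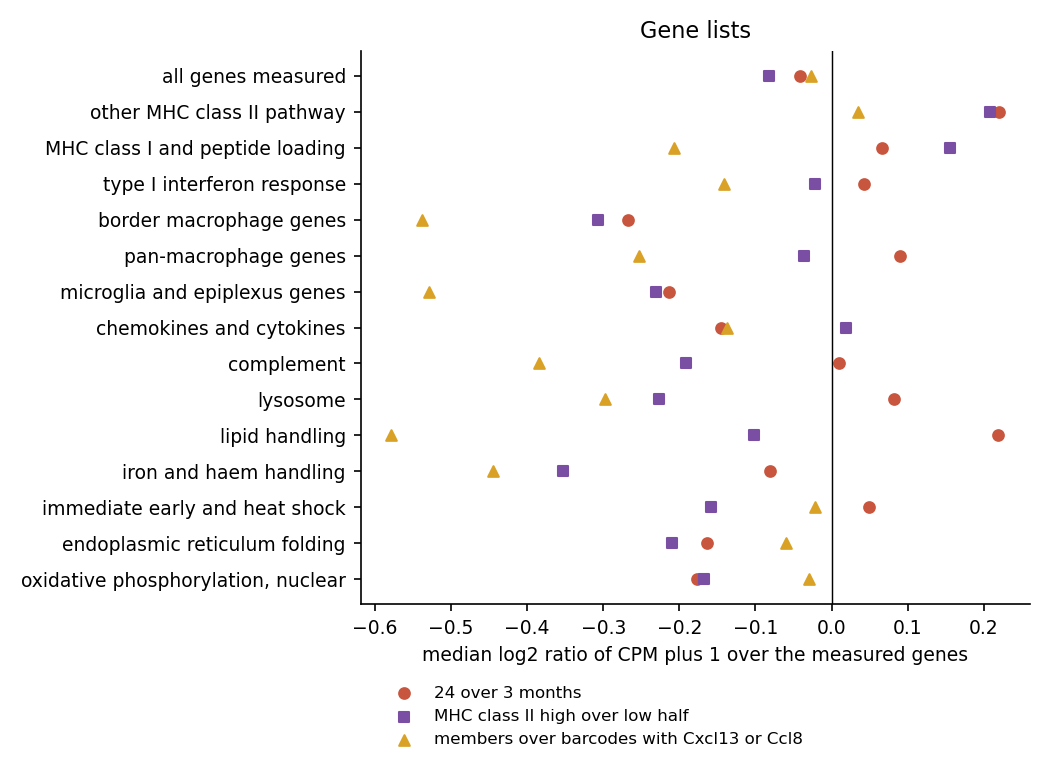
Median log2 ratio (horizontal axis) over the measured genes of each list for 24 over 3 months (circles), MHC class II high over low members (squares) and members over barcodes with Cxcl13 or Ccl8 (triangles). Border macrophage genes stand at -0.27, -0.31 and -0.54, while the medians over all genes lie between -0.08 and -0.03.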

How the data were processed

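Each library is a 10x Genomics 3′ single-cell library of pooled choroid plexus, 1 per age. The authors deposited raw whole-number UMI counts for every gene and barcode. Cell Ranger 4.0.0 and mm10 are named in the submitters' processing notes, and the annotation is not stated in the labels used here. No doublet caller was run. One alternative leaves out members with 3 or more UMIs of the markers of another cell type.

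Counts were summed over the members of a group and divided by the group's total (CPM). Ratios have exact conditional binomial 95% intervals, CPM values have exact Poisson intervals and shares have Clopper-Pearson intervals, all for counting error only. Genes with 100 or more UMIs over both groups were compared. A ratio of 1.5 either way is a rule of size and not a test. Log2 ratios are of CPM plus 1, which understates low genes. The calculation was tested on simulated data. The members and gene lists were chosen with earlier results of these data known.

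The genes named are the 12 highest and 12 lowest by age, 10 and 10 by MHC class II and 8 and 8 against barcodes with Cxcl13 or Ccl8. They had to pass the size rule, reach 100 CPM in 1 group, keep their direction under every scaling and, where higher, stand at or above epithelial barcodes. By MHC class II they also had to pass in each library. Predicted, mitochondrial and ribosomal genes were left out. A fixed set of macrophage markers and up to 4 genes per list were added. Tnf, Il1b and Il12b by age, and Ccl2, Cbr2 and F13a1 by MHC class II, were chosen after their values were seen. Python 3.11.15, scipy 1.17.1 and edgeR 4.0.16 (TMM factors only) were used. Some items are not reported here.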

Additional observations from a re-analysis of the deposited data

Results flagged for a closer look

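Il12b went opposite ways by age in the MHC class II high and low members. The ratio of 24 over 3 months was 0.444 in the high members (390 UMIs in 25 cells at 3 months, 157 UMIs in 21 cells at 24 months) and 1.71 in the low members (144 UMIs in 14 cells, 85 UMIs in 7 cells). It drew attention because both ratios passed 1.5-fold in opposite directions with at least 100 UMIs in each set. The difference was not tested, since each age is 1 library.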

How the results depend on the processing

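Each age is 1 library, so nothing here separates age from library, and counting intervals understate the error. No paired analysis was possible because each age has 1 library and no test was made, and for the same reason no replicate could be left out. Depth limits genes under 100 UMIs. Of 96 values of counts and shares under the alternatives 71 stayed near the value reported and 25 moved, and 13 of 24 genes by age, 19 of 20 by MHC class II and 15 of 16 against Cxcl13 or Ccl8 passed 1.5-fold in every setting run.

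Genes higher and lower at 24 months numbered 392 and 740 with a limit of 20 UMIs, 3217 and 4278 with 1 UMI, and 14 and 32 after thinning to 1500 UMIs, and 37 were higher in all C1q barcodes. By MHC class II, 28 were higher and 46 lower after thinning, 93 and 45 with TMM factors and 79 and 57 with median-of-ratios factors. Against Cxcl13 or Ccl8, 57 were higher and 62 lower after thinning, 197 and 50 with TMM factors, 201 and 50 with median-of-ratios factors, 66 were lower among barcodes with 1000 or more genes, and 171 were higher where the other barcodes held 5 or more UMIs of Cxcl13 and Ccl8. These 2 scalings for MHC class II and for Cxcl13 or Ccl8, an equal weight for high and low members by age, and leaving out the member with the most UMIs of a gene were chosen after seeing the data. Members were 58.6% of C1q barcodes at 24 months with 1000 or more genes, 99.1% at 3 months after thinning, and 99.5% and 73.7% at 3 and 24 months when 1 UMI of the 2 genes was allowed.

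The direction turned in 4 cases, and the cause was not tested. Cxcl9 in the high over the low members stood at -0.38 with 5 or more C1q UMIs, and Cxcl9 against Cxcl13 or Ccl8 at 0.066 with 5 or more UMIs of these in the other barcodes. By age in all C1q barcodes the median of the border macrophage genes was 0.16 and Mgl2 stood at 0.036.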
